A study of Mus musculus with 4 samples.

Results

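The 9 Hedgehog pathway genes described here were the ligand genes Shh, Ihh and Dhh, the receptor genes Ptch1 and Hhip, the signal transducer gene Smo and the transcription factor genes Gli1, Gli2 and Gli3. They were chosen by name as the core of the pathway, with earlier results of these data known. For each symbol the transcript entry with the most counts was kept. All 9 were found among the 20701 genes of the table. Transcript levels came from RNA-Seq of cardiac progenitor cells (CPCs) that were made from E14 Tg(Nkx2-5-EmGFP) mouse embryonic stem cells (ESCs), an ESC line with a green fluorescent reporter of the cardiac factor gene Nkx2-5, and sorted for that reporter at day 5. Different clones gave the 4 libraries, 2 of control genotype and 2 Isl1-/-, called Isl1_KO here. The Isl1-/- clones were picked as single clones after CRISPR/Cas9 editing, and all groups carry the same reporter and were grown on feeder fibroblasts before differentiation. A knockdown is named in the series' design text but a knockout in the sample titles and the methods, which were followed. Each value therefore rests on 2 clones per genotype, and p-values measure the spread between these clones.

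In the Hedgehog pathway, Ptch1 at the cell surface holds the membrane protein Smo inactive until a Hedgehog ligand binds Ptch1. Active Smo, which works at the primary cilium, then lets the Gli factors turn on their targets. Gli2 is known mainly as the first activator, Gli3 mainly as a repressor when no ligand is present, and Gli1 as an activator that is itself a target. Ptch1 and Hhip, a decoy that binds the ligands, are also targets and limit the signal. In the embryo, ligand from the pharyngeal endoderm signals to the neighbouring second heart field, where Isl1, a LIM-homeodomain factor, is expressed. The comparison asks which of these genes differ when Isl1 is lost.

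Over 1 entry per gene, the libraries held between 8821517 and 13186109 counts. Isl1 itself fell from 35.1 and 35.7 CPM (counts scaled to library size) in control to 1.31 and 2.08 CPM in Isl1_KO, as the labels say. The control libraries lay close to each other (chi-square over its degrees of freedom 1.13, 13323 genes), while the Isl1_KO pair did not (17.7, 13427 genes). The control pair thus differed by little more than counting error. The spread between clones that the p-values measure came mainly from the Isl1_KO pair. Of the 7 listed cardiac progenitor markers, all tested, 5 were lower in Isl1_KO and 0 higher, beside 1.94% and 0.503% of all tested genes. Isl1, the edited gene, is among these 5, and its fall was set by the design. Nkx2-5, whose reporter was used for the sort, was also among the 5, at 21.1 and 19.8 CPM in control and 4.77 and 4.34 CPM in Isl1_KO. The progenitor markers Gata4 and Hand1 did not pass and were at 69.4 CPM or more in each of the 4 libraries. Gata4 was still lower in both Isl1_KO libraries, at 110 and 111 CPM in control and 69.4 and 88.0 CPM in Isl1_KO. Its log2 fold change was -0.49 (95% interval from -0.81 to -0.18, edgeR adjusted p 0.109), and that of Hand1 was 0.24 (95% interval from -0.088 to 0.57). Of 8 cardiomyocyte markers 7 were tested, and all of these 7 were lower, with a summed level of 1489 and 1578 CPM in control and 51.2 and 37.6 CPM in Isl1_KO. In such bulk libraries fewer cells of a type and less RNA per cell cannot be told apart.

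Loss of Isl1 was accompanied by a near absence of Shh transcripts and by a lower level of Gli1. Hhip and Ihh had lower values that did not pass the threshold, and Ptch1, Smo, Gli2 and Gli3 had log2 fold changes between -0.19 and 0.17. Of the 8 members tested, 2 (Shh and Gli1) were lower in Isl1_KO by edgeR's quasi-likelihood test (Benjamini-Hochberg adjusted p under 0.05), and 0 were higher. Over all 12715 genes tested, 2.45% passed the same threshold in either direction and 1.94% were lower. Both Isl1_KO libraries lay below both control libraries for 6 of the 8 members, which was the case for 29.0% of all tested genes, and above them for 1 member, as for 29.1% of all. The 95% interval of the log2 fold change left out 0 for 6 of the 8 members, as for 23.3% of all tested genes. The median log2 fold change of the 8 members was -0.53, against -0.0027 over all tested genes. As the members were chosen with earlier results known, the values over all genes are a background and not a test. Only Dhh did not reach the filter on low counts, and Shh reached it through the control libraries alone.

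**Figure D1:**
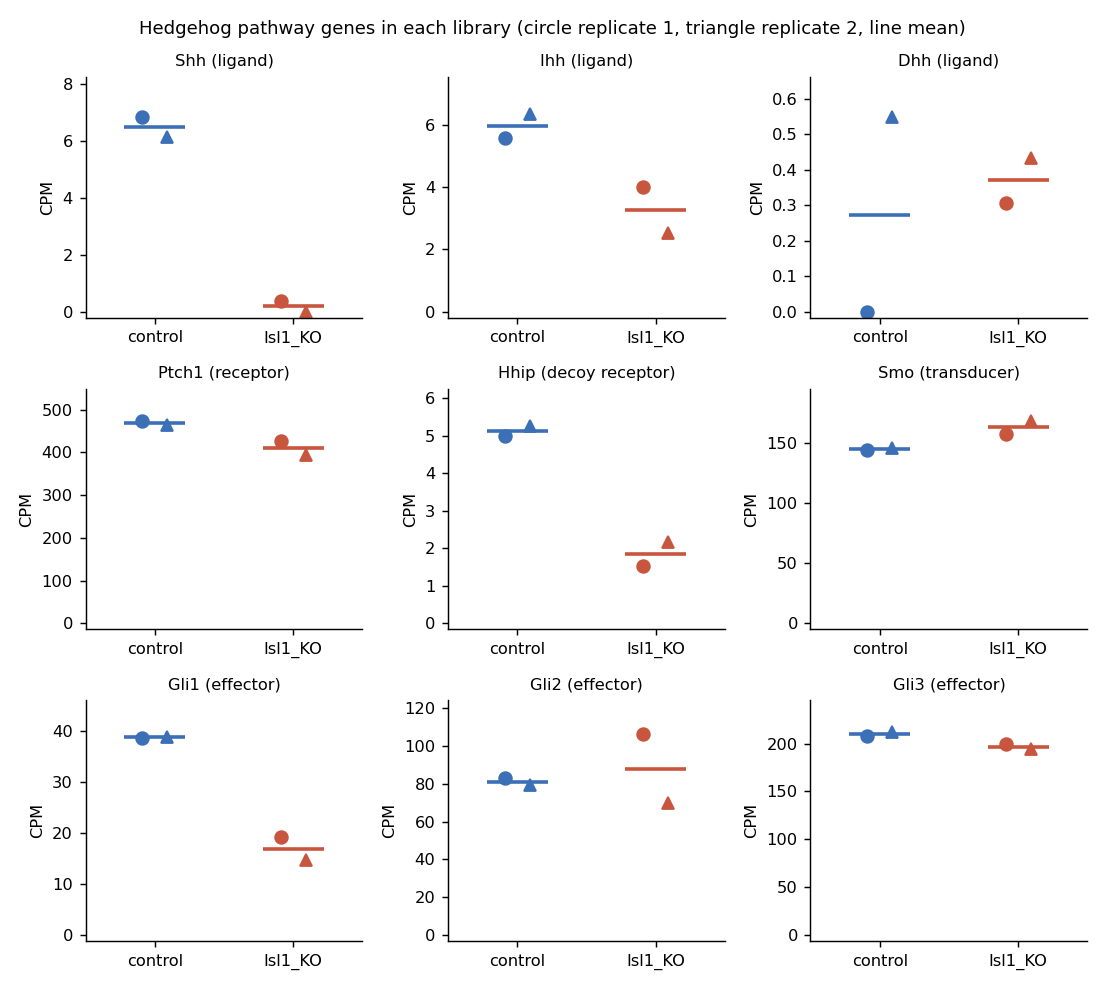
Level of each member in CPM (vertical axis, from 0) in the 2 control and the 2 Isl1_KO libraries, with 1 panel per gene; circles are replicate 1, triangles replicate 2 and lines the mean of 2 libraries. Shh lay at 6.81 and 6.13 CPM in control and at 0.384 and 0 CPM in Isl1_KO, and Gli1 at about 38.8 CPM in control and at 19.1 and 14.7 CPM in Isl1_KO.

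Levels can be compared between the genes only per length, for which the deposited RPKM values (reads scaled by transcript length and library size) were used. In control the order of RPKM levels was Ptch1, Smo, Gli3, Gli2, Gli1, then Shh and Ihh, then Hhip and Dhh. Ptch1 was at 36.68 and 35.99 RPKM, Smo at 20.41 and 20.64 RPKM and Gli3 at 13.95 and 14.24 RPKM. Gli2 had 6.98 and 6.67 RPKM and Gli1 5.98 and 6.01 RPKM. These 5 genes were thus expressed well above the ligands, and their control values did not overlap. Shh (1.44 and 1.30 RPKM) and Ihh (1.27 and 1.45 RPKM) overlapped in control, so that their order was not set. Hhip had 0.31 and 0.33 RPKM in control, and Dhh was listed at 0 and 0.07 RPKM. In Isl1_KO the first 5 places were taken by the same genes in the same order. Below them Ihh came next, at 0.91 and 0.60 RPKM, and then Hhip, at 0.10 and 0.14 RPKM. Shh, at 0.08 and 0 RPKM, overlapped Dhh, at 0.04 and 0.06 RPKM.

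Shh encodes the Sonic hedgehog ligand (chromosome 5, 28783355 to 28793641, minus strand, mm9). Control libraries held 60 and 56 counts of it, and the deeper Isl1_KO libraries 5 and 0. The groups were far apart, and in Isl1_KO replicate 2 no read was counted, which allows a level of up to 0.260 CPM. Its mean was 6.47 ± 0.483 CPM in control and fell to 0.192 ± 0.272 CPM (SD, n = 2 in each group). On the log2 scale the change was -4.92 (SE 0.647, 95% interval from -6.56 to -3.27), and it passed edgeR's test (adjusted p 0.0342). Shh reached the filter on low counts through the control libraries alone, so it could enter this test only as lower. With at least 10 counts required in every library it was not tested. From the summed counts alone, 116 against 5, Shh was 31.7-fold lower, with an exact 95% interval of 13.2 to 99.5 that covers counting error only. Set against the floor of 3 counts, Isl1_KO replicate 2 was at least 24.9-fold lower than the control mean. Exons of Shh overlap those of the noncoding genes 9530036O11Rik and Gm17493 on the other strand, and since reads of both strands were counted together, reads of these cannot be told apart from those of Shh. Without either control library Shh no longer passed, although its log2 fold change was -4.85 without control replicate 1 (edgeR adjusted p 0.363) and close to that without control replicate 2 (edgeR adjusted p 0.293).

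Ihh, the Indian hedgehog ligand (chromosome 1, 74991891 to 74998246, minus strand), was counted 49 and 58 times in control and 52 and 29 times in Isl1_KO. Scaled by library size the mean was 5.95 ± 0.554 CPM against 3.26 ± 1.05 CPM (SD, n = 2 each), and the groups did not overlap. The log2 fold change of -0.86 (SE 0.288, 95% interval from -1.59 to -0.13) did not pass over all genes (edgeR adjusted p 0.172). The second transcript entry of Ihh, which shares reads with the first, had a log2 fold change of -0.61 (SE 0.303). Dhh, the Desert hedgehog ligand (chromosome 15, 98723462 to 98728971, minus strand), was close to absent, with 0 and 5 counts in control against 4 and 5. Only counting precision can be given for it, a ratio of Isl1_KO over control of 1.32 with an exact 95% interval of 0.396 to 5.00, and a difference was not detectable at this depth. As counts per length, Shh made up 53.1% and 46.0% of the 3 ligands in control but 7.85% and 0% in Isl1_KO. Ihh made up 46.9% and 51.5% in control and 88.2% and 90.9% in Isl1_KO. The share of Ihh was thus higher in both Isl1_KO libraries while its own level was lower in both. For such a share, 2 libraries against 2 cannot give an exact two-sided permutation p below 0.333, which was the value obtained.

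Since pharyngeal endoderm and notochord are known sources of Shh, markers of endoderm and notochord were examined beside it. The endoderm list was a general one that was not made for pharyngeal endoderm. Of 11 endoderm markers 10 were tested and 0 were called by edgeR. An unadjusted p under 0.05, found for 23.3% of all tested genes, was found for 3 of the 10. These were Apob, Foxa1 and Cldn6, all lower, at log2 fold changes of -1.81, -0.50 and -0.25. The median of the 10 was -0.37, with 8 negative and 2 positive values. The summed level of the markers was 228 and 223 CPM in control and 194 and 189 CPM in Isl1_KO. Of it Cldn6 held 81.8, 83.6, 64.7 and 74.4 CPM and Epcam 56.1, 56.0, 56.7 and 71.1 CPM. Foxa2, a factor of endoderm, notochord and floor plate, was at 7.61 and 6.89 CPM in control and 6.46 and 6.16 CPM in Isl1_KO. Of 6 notochord markers 5 were tested and 0 were called, also at an unadjusted p under 0.05, with summed levels of 31.0 and 28.8 CPM in control and 22.6 and 56.5 CPM in Isl1_KO. The last of these values came mainly from T, at 40.6 CPM in Isl1_KO replicate 2, and Noto had at most 4 counts in any library. A further list of 10 pharyngeal endoderm markers was added after the values of Pax1 and Pax9 had been seen, and both are in it. Of this list 6 genes were tested and 3 were lower (Pax1, Pax9 and Nkx2-3), beside 1.94% of all tested genes. As Pax1 and Pax9 were known to be lower when the list was made, this count tests nothing. The summed levels were 31.8 and 30.7 CPM in control and 17.5 and 23.7 CPM in Isl1_KO, of which Hhex held 12.0, 13.5, 13.3 and 20.9 CPM. Nkx2-1 and Gcm2 were at 0 counts everywhere, and Foxe1 and Pax8 had at most 1 count in any library. The part of these cells in the result for Shh was not tested. Among other cells, the summed levels in control and Isl1_KO were 385 and 385 against 339 and 374 CPM for 8 endothelium markers, and 28.3 and 29.0 against 18.8 and 31.2 CPM for 5 neural ectoderm markers. For 7 feeder fibroblast markers they were 1500 and 1485 against 967 and 467 CPM. Of the 8, 3 and 6 genes tested in these lists 0 were called by edgeR. An unadjusted p under 0.05 was found for 4, 1 and 2 of them, against 23.3% of all tested genes. The 4 endothelium genes among these (Tek, Tie1, Emcn and Cldn5) had negative log2 fold changes. Of these, Emcn was at 0 CPM in both Isl1_KO libraries and Cldn5 at 0.615 and 0.174 CPM. Both reached the filter on low counts through the control libraries alone, and could enter the test only as lower. The median of the 8 was -0.83 with both included. Kdr alone held 186 and 278 CPM of the summed level in Isl1_KO.

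Ptch1, the receptor that binds all 3 ligands (chromosome 13, 63610261 to 63674474, minus strand), was the most abundant member. Its level was 474 and 465 CPM in control and 426 and 393 CPM in Isl1_KO, and both Isl1_KO values were below both control values. The difference was small, with a log2 fold change of -0.19 (edgeR adjusted p 0.196, SE 0.072), and its 95% interval reached from -0.38 to -0.012. A fold change as large as that of Gli1 thus lay outside the interval of Ptch1. The other transcript entry of Ptch1 gave the same log2 fold change of -0.19. Hhip, the decoy receptor (chromosome 8, 82490014 to 82581905, minus strand), was scarce. It had 44 and 48 counts in control and 20 and 25 counts in Isl1_KO, or 4.99 and 5.25 against 1.54 and 2.17 CPM. The mean was 2.76-fold lower without overlap between the groups, a log2 fold change of -1.47 (SE 0.271, 95% interval from -2.16 to -0.78). Its edgeR adjusted p of 0.0679 missed the threshold, and with all 4 libraries it ranged from 0.0495 without a filter on low counts to 0.0972 in DESeq2. It was 0.567 and 0.588 without control replicate 1 and 2, and passed without either Isl1_KO library. Under the criteria of the study (over 1.5-fold and an unadjusted p under 0.05, in DESeq2) Hhip, Shh and Gli1 passed, 3 of 9 members and all lower, against 5.89% of all 16855 genes in either direction and 4.57% lower. As counts per length, Hhip amounted to 0.847% and 0.908% of Ptch1 in control and 0.290% and 0.443% in Isl1_KO.

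To set sequence beside these 2 feedback receptors, which are both known Gli targets and differed in fold change, the 250 bases before their start sites are given from RefSeq (GRCm38.p6), 5′ to 3′ on the strand of the gene. The Gli site GACCACCCA was searched on both strands, and the stretch closest to it is in capitals. Of the 9 members, 7 had a window in this source, and Shh and Gli1 had none.
Hhip (chr8:80058009-80058258, minus strand): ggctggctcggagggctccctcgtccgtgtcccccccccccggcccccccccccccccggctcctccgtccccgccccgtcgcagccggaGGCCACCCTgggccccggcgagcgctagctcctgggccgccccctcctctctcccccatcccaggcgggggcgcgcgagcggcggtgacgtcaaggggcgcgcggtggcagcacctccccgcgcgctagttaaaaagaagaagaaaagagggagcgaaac
Ptch1 (chr13:63565736-63565985, minus strand): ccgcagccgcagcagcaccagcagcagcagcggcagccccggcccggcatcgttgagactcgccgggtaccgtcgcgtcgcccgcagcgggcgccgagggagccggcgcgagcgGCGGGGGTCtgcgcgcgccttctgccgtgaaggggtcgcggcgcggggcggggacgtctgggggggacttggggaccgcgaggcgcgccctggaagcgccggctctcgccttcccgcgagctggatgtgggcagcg
No window of the 7 members held the exact site, which occurred in 74 of 32851 such windows (0.225%). The closest stretch differed from it at 2 of 9 bases for Hhip, 160 bases before the start site, and at 3 bases for Ptch1. A stretch within 2 bases of the site was present in 51.8% of all windows, so these matches are common. The absence of the letters in this window says nothing about sites elsewhere.

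Smo, the membrane protein that Ptch1 restrains (chromosome 6, 29685694 to 29711365, plus strand), was the member with values above control. It was at 143 and 145 CPM in control and 157 and 168 CPM in Isl1_KO. This log2 fold change of 0.17 (SE 0.0678, 95% interval from 0.00051 to 0.34) did not pass, at an edgeR adjusted p of 0.214. As a ratio of counts per length, Ptch1 over Smo was 1.80 and 1.74 in control and 1.48 and 1.27 in Isl1_KO.

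**Figure D2:**
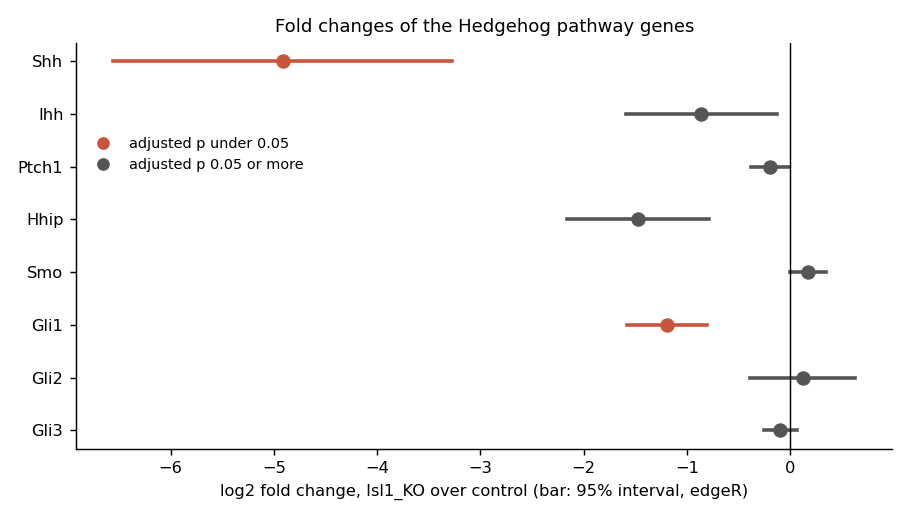
Log2 fold change of the 8 tested members, Isl1_KO over control (horizontal axis), with the 95% interval of edgeR's fit as a bar; red marks an adjusted p under 0.05. Shh (-4.92) and Gli1 (-1.19) passed, Hhip (-1.47) and Ihh (-0.86) had intervals below 0 but did not pass, and the remaining members lay between -0.19 and 0.17.

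Among the effectors, Gli1 was the one that passed the test. For Gli1 (chromosome 10, 126766945 to 126778645, minus strand), 341 and 355 reads were counted in control against 249 and 169 in Isl1_KO. This was 38.7 and 38.8 CPM against 19.1 and 14.7 CPM, and the gap between the groups was wider than that between the Isl1_KO clones. On average Gli1 was 2.29-fold lower, at 16.9 ± 3.17 CPM against 38.8 ± 0.0959 CPM in control (SD, n = 2 each). On the log2 scale the difference was -1.19 (SE 0.153, 95% interval from -1.58 to -0.81, edgeR adjusted p 0.0332). An exon of Gli1 overlaps Arhgap9 on the other strand, whose own entry had between 3 and 13 counts. Without either control library Gli1 kept its log2 fold change, at -1.20 and -1.19, but no longer passed (edgeR adjusted p 0.363 and 0.335).

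Gli2 (chromosome 1, 120730709 to 120950196, minus strand) was at 82.9 and 79.1 CPM in control and at 106 and 69.7 CPM in Isl1_KO. The Isl1_KO clones lay on either side of control, and the log2 fold change was 0.12 (SE 0.201, 95% interval from -0.39 to 0.63, edgeR adjusted p 0.760). Its direction depended on the clone, at -0.22 without Isl1_KO replicate 1 and 0.39 without Isl1_KO replicate 2. Gli3 (chromosome 13, 15555068 to 15821859, plus strand) was at 208 and 212 CPM in control and 199 and 194 CPM in Isl1_KO. Its log2 fold change of -0.096 (edgeR adjusted p 0.411, SE 0.0626) had the narrowest interval of the members, from -0.25 to 0.063.

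The make-up of Gli transcripts also differed between the groups. As counts per length, Gli1 made up 22.2% and 22.3% of the 3 Gli genes in control and 11.7% and 10.7% in Isl1_KO. Gli3 made up 51.8% and 52.9% in control and 52.9% and 61.5% in Isl1_KO, and Gli2 25.9% and 24.8% against 35.4% and 27.8%. The share of Gli1 did not overlap between the groups, whereas that of Gli3 did. Relative to Ptch1, Gli1 amounted to 16.3% and 16.7% in control and 8.96% and 7.44% in Isl1_KO. With 2 libraries against 2 the exact two-sided permutation p was 0.333 for the share of Gli1 and for its ratio to Ptch1, the smallest value possible.

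**Figure D3:**
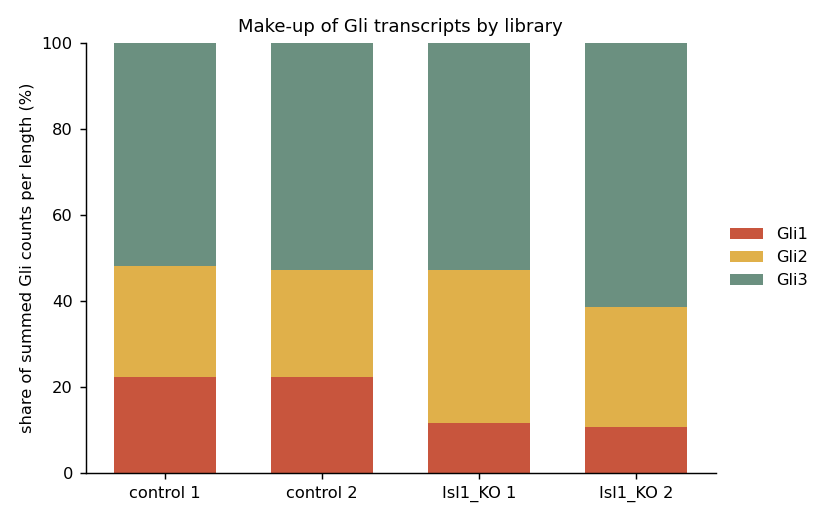
Share of Gli1, Gli2 and Gli3 in the summed counts per length of the 3 genes (vertical axis, percent), with 1 bar per library. Gli1 made up 22.2% and 22.3% in control and 11.7% and 10.7% in Isl1_KO.

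The other pathway genes were described from a list of 37 genes by role. Of these, 36 were tested, 0 were called by edgeR, and 8 had an unadjusted p under 0.05, a share near the 23.3% of all tested genes. DESeq2 called 2 of them at an adjusted p under 0.05, Scube1 lower and Scube2 higher, where 4.67% of all tested genes were called. The median log2 fold change of the 36 was -0.12, and 32 of them lay within 0.58 on the log2 scale, the size set by the criteria of the study. The larger values were found among genes of ligand release. Scube1, of a family of secreted proteins that help release the ligands from the cell, was at 53.9 and 54.6 CPM in control and at 20.2 and 9.72 CPM in Isl1_KO. Its log2 fold change was -1.85 (edgeR adjusted p 0.0627, SE 0.323), and the Isl1_KO clones differed from each other more than the control clones did. Its relative Scube2 had the opposite sign, with 6.13 and 5.25 CPM in control and 9.69 and 18.5 CPM in Isl1_KO. Its fit gave 1.30 on the log2 scale (SE 0.357), at an edgeR adjusted p of 0.127. Hhat, the enzyme that attaches palmitate to the ligands, was at 4.88 and 6.89 CPM in control and 3.38 and 1.39 CPM in Isl1_KO (log2 fold change -1.28, SE 0.445, edgeR adjusted p 0.181). Disp1, which exports the ligands, was listed at 0 counts in all libraries.

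Gas1, Cdon and Boc are co-receptors that help the ligands bind Ptch1, and none of the 3 passed. Gas1 had a log2 fold change of -0.34 (SE 0.0951), Cdon one of -0.29 (SE 0.119) and Boc one of -0.052 (SE 0.122), with edgeR adjusted p of 0.133, 0.226 and 0.832. Sufu, which holds the Gli proteins inactive, was at 90.6 and 92.1 CPM in control and 103 and 102 CPM in Isl1_KO. Its log2 value of 0.17 (SE 0.0632) did not pass, at an edgeR adjusted p of 0.207. Kif7, a kinesin that regulates Gli proteins at the tip of the cilium, had a log2 fold change of -0.19 (edgeR adjusted p 0.419, SE 0.128). All 17 genes of Gli regulation and all 9 genes of Smo regulation lay within 0.58 on the log2 scale.

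Since Smo acts at the primary cilium, 36 genes of cilium assembly and transport were examined as well. All 36 were tested, 0 were called by edgeR or DESeq2, and 4 had an unadjusted p under 0.05 in edgeR. Over all tested genes, edgeR called 2.45% and DESeq2 4.67%, and 23.3% had an unadjusted p under 0.05 in edgeR. At such shares few or none of 36 genes would be called, so the count of 0 does not set the cilium genes apart. Their log2 fold changes lay between -0.49 and 0.31 with a median of -0.062, none beyond 0.58 in size. Their summed level was 1573 and 1577 CPM in control and 1500 and 1522 CPM in Isl1_KO.

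Genes known to respond to Hedgehog signals in various embryonic tissues formed a list of 24, which was chosen with earlier results of these data known. Of the 24 genes, 20 were tested, 4 were lower in Isl1_KO and 0 higher, beside 1.94% and 0.503% of all tested genes. An unadjusted p under 0.05 was found for 11 of the 20, against 23.3% of all tested genes. Foxf1, a forkhead factor gene of splanchnic mesoderm, named after its values were seen, was at 144 and 133 CPM in control and 223 and 183 CPM in Isl1_KO (log2 0.55, SE 0.114, edgeR adjusted p 0.0813). It was called higher by DESeq2 and with a replicate block, and Nkx6-1 was called higher under the criteria of the study. The median of the 20 was -0.26. Pax1 and Pax9, paired-box factors of the pharyngeal pouches and the sclerotome, were at low levels as Shh was. Pax1 fell from 65 and 66 counts to 4 and 0, which the fit put at -5.39 on the log2 scale (SE 0.606, edgeR adjusted p 0.0235). Pax9 fell from 43 and 44 counts to 6 and 3 and was 13.4-fold lower on average (log2 -3.69, SE 0.353, edgeR adjusted p 0.0152). In both, the Isl1_KO libraries held only a few reads. Like Shh, Pax1 and Pax9 thus reached the filter on low counts through the control libraries alone, and could enter the test only as lower.

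Sfrp1, which encodes a secreted Wnt antagonist, fell from 44.3 and 45.5 CPM to 7.92 and 5.99 CPM and was 6.46-fold lower on average (log2 -2.68, SE 0.158, edgeR adjusted p 0.00375). Ccnd2, a cyclin gene of the cell cycle, fell from 143 and 145 CPM to 57.7 and 80.6 CPM and was 2.08-fold lower on average (log2 -1.06, SE 0.161, edgeR adjusted p 0.0466). The largest positive value of the list was that of Nkx6-1, a factor of ventral neural progenitors, at 2.84 and 1.64 CPM in control and 3.31 and 7.81 CPM in Isl1_KO (log2 fold change 1.30, SE 0.529, edgeR adjusted p 0.225). With at least 10 counts required in every library, Shh, Pax1 and Pax9 were not tested, and Sfrp1 was the only one of the list that was called. Ccnd2 also lost its call when all transcript entries were fitted. Without either control library 0 of the list passed. The list is a general one and was not made for these cells.

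**Figure D4:**
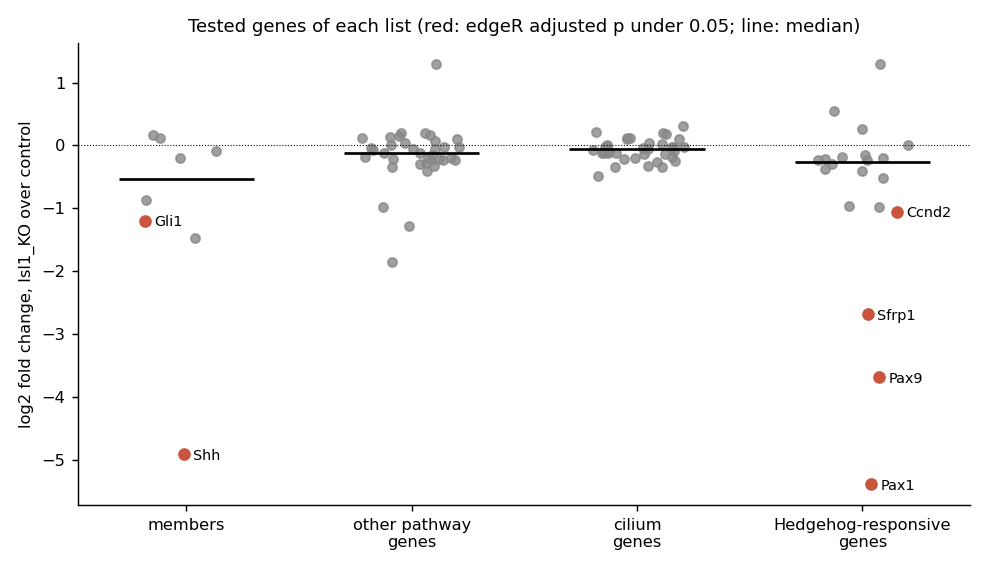
Log2 fold change, Isl1_KO over control (vertical axis), of the tested genes among the 9 members, the 37 other pathway genes, the 36 cilium genes and the 24 Hedgehog-responsive genes; each point is a gene, lines are medians, and red marks an edgeR adjusted p under 0.05. Called genes were Shh and Gli1 among the members and Pax1, Pax9, Sfrp1 and Ccnd2 among the responsive genes, and the cilium genes lay between -0.49 and 0.31.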

How the data were processed

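RNA-Seq libraries of sorted day 5 CPCs, 2 control and 2 Isl1_KO, were grouped by their titles. The authors mapped reads to mm9 with STAR (introns of 20 to 500000 bases) and counted exonic reads per RefSeq transcript with HOMER on both strands without adjustment, so the deposited counts are whole reads and transcripts of a gene share reads. Versions are not given in the sources used here. The authors made the deposited RPKM values with edgeR, and a recomputation from the counts differed by at most 0.751% for entries of 200 or more counts. The deposited signal column (mean normalized count), log2 fold changes, score (Wald statistic) and p-values are the authors' DESeq2 comparison and were not used.

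Of 31507 entries, the one with the highest summed count was kept for each of 20701 symbols (57.0% of all counts). The number of unmatched columns of per-sample values was 0. The main test was edgeR 4.0.16 (R 4.3.3), quasi-likelihood, TMM, filterByExpr, no covariate, two-sided, adjusted by Benjamini-Hochberg across 12715 genes, with calls at 0.05. Each coefficient divided by the root of its F statistic gave the standard error behind the 95% intervals. CPM used effective library sizes, for which 3 counts correspond to 0.231 to 0.341 CPM, and floors and count intervals hold counting error alone, as no molecular identifiers were used. In simulated counts with 200 changed genes among 12761 tested for this comparison, 96.0% of 2-fold and 100% of 4-fold changes were recovered. False calls numbered 10. The recovered shares hold for the simulated counts only, as Hhip (2.76-fold lower) and Scube1 (3.63-fold lower) did not pass in the real data. Positions are from GENCODE vM1 on NCBIM37, the assembly behind mm9. DESeq2 1.42.0, other filters, all entries, a replicate block and each library left out were alternatives. With Python 3.11.15, ratios were tested by exact permutation over libraries.

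The members and the gene lists were chosen with earlier results of these data known. Named by rule were all members, Isl1, each listed gene past the threshold, the 4 largest fold changes among other pathway genes and among responsive genes, and Sufu, Kif7, Cdon, Boc and Gas1, and 1 gene that the rule also names is not reported here. Marker genes, Foxf1, and Nkx2-3, Foxa2, T and Hhex beside Shh were named after their values were seen.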

Additional observations from a re-analysis of the deposited data

How the results depend on the processing

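With at least 10 counts in every library, 1 member (Gli1) and 1 responsive gene (Sfrp1) passed, as Shh, Pax1 and Pax9 were not tested there and Ccnd2 was lost, the cause of which was not tested. DESeq2 called 172 genes higher and 432 lower and 2 other pathway genes, the criteria of the study 222, 771 and 3, and no filter 127 higher and 1 pathway gene (Scube1). The replicate block gave 99 genes higher, 1 pathway gene (Scube1) and the same 2 members, and changed no call of a member. Deviations of libraries with the same number were uncorrelated (r 0.013, 10813 genes). As the control pair differed by little more than counting error, this cannot decide whether the numbers pair the libraries. Leaving out 1 library gave 0 to 3104 genes higher, 27 to 3246 lower, 0 to 8 members, 0 to 21 pathway genes, 0 to 10 cilium genes and 0 to 16 responsive genes. The lowest values came without a control library and the highest without Isl1_KO replicate 1. The lone library was then assumed to vary like the remaining pair, which was the close control pair in the latter case. Log2 fold changes ranged from -8.99 to -4.03 for Shh (the former against a library at 0, so no bound), -1.40 to -1.02 for Gli1, -1.73 to -1.24 for Hhip, -1.24 to -0.57 for Ihh and -0.22 to 0.39 for Gli2, the one member to change sign. With all libraries, the alternatives kept the direction of all tested members. Dhh was too scarce for a test with a filter.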

Other observations

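The genes around the members were examined after the data had been seen. Of the 10 tested genes nearest to Shh, which reach out to 1591 kb and include Lmbr1, the gene that holds a distant limb enhancer of Shh, 0 were called in either direction by edgeR, and their log2 fold changes lay between -0.54 and 0.28. Lmbr1 itself was at -0.26 (SE 0.184), with an edgeR adjusted p of 0.448. For Gli1, the 10 nearest tested genes lay within 149 kb and had log2 fold changes between -0.32 and 0.18, and 0 were called. The same count of 0 was found around Hhip, where values lay between -0.69 and 0.26, and around each of the other members. As only 2.45% of all tested genes were called, a count of 0 among 10 genes does not set these neighbours apart. The nearest tested neighbours of Shh and Gli1, Rbm33 and Mars, had log2 fold changes of 0.046 (SE 0.0699) and 0.18 (SE 0.0690). Of the members, Ptch1 and Gli3 share chromosome 13 with Isl1, and Ihh and Gli2 share chromosome 1.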
